A study of Mus musculus with 9 samples.

Results

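The genes described here encode the core proteins of the spliceosome and the factors that choose its splice sites, 60 in number. They were taken by symbol from the platform annotation, from a list chosen with earlier results of these data known. Each was read from its brightest probe set that names a single gene. Of the 60, 57 were measured among 19937 genes, and all 57 were bright enough to be among the 11962 genes tested. Srsf7, an SR protein, had no probe set of its own, and Hnrnpa1 and Hnrnpa3, abundant hnRNP proteins, had only probe sets shared with other genes, 4 and 6 of them. No value is given for these 3 genes.

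Embryonic fibroblasts of the mouse (MEFs), cells of connective tissue in culture, of the genotypes p27CK (CK), p27 knockout (KO) and p27 wild type (WT) were each measured on 3 Affymetrix arrays. All cells had been kept in medium with 10% serum and then for 72 h without serum, which brings fibroblasts into quiescence, so every group shares the starvation. Cdkn1b encodes p27, an inhibitor of cyclin-dependent kinases. In published work p27CK is a p27 altered so that it binds neither cyclins nor these kinases, while the labels give the name alone. The extraction protocol of all samples speaks of wt and delta51 mice, and delta51 is not tied there to either mutant. The labels give no age, strain or number of embryos and do not tell if arrays of 1 genotype stem from separate cultures, so p-values measure the spread between arrays, which may be technical.

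The spliceosome removes introns in steps. The U1 particle binds the start of the intron, the factors Sf1 and U2af mark its end, and the U2 particle with its Sf3a and Sf3b subcomplexes settles on the branch site. The U4/U6.U5 particle then joins, and Prp8, Brr2 and the Prp19 complex take part in building the active centre. SR proteins bind exons and favour their use, many hnRNP proteins oppose it, and the kinases Clk1 and Clk4 phosphorylate SR proteins. E2F factors with pocket proteins keep cell cycle promoters silent in quiescent cells, and p27 has been described in such complexes.

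The promoters of 5 members that the results describe are shown, chosen with their values known. Sf3a3 and Prpf4 were higher in both mutants, U2af1 also, with E2F letters before its start, and Clk4 and Srsf2 were lower in CK. Each run holds the 250 bases before the start of the gene in RefSeq, assembly GRCm38.p6, written 5′ to 3′ on the strand of the gene, and U2af1 has 2 such windows, of which 1 is shown. Capitals mark letters of the motifs searched, which overlap in places.
Sf3a3, chr4:124714611-124714860, strand plus: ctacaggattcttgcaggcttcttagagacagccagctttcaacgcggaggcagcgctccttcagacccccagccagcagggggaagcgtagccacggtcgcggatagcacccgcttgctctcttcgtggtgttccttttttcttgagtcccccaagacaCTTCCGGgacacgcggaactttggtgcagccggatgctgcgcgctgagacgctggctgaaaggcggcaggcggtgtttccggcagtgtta
Prpf4, chr4:62408533-62408782, strand plus: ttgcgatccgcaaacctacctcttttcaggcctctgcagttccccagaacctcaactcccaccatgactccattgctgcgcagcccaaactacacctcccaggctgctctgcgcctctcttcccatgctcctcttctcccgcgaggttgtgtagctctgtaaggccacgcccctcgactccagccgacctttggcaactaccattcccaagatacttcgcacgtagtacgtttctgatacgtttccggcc
U2af1, chr17:31658765-31659014, strand minus: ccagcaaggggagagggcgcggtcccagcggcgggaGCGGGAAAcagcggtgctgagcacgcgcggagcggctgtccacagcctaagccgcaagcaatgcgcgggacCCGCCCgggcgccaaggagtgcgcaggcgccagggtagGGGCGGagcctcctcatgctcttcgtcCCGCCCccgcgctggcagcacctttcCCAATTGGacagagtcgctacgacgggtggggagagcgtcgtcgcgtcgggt
Clk4, chr11:51262864-51263113, strand plus: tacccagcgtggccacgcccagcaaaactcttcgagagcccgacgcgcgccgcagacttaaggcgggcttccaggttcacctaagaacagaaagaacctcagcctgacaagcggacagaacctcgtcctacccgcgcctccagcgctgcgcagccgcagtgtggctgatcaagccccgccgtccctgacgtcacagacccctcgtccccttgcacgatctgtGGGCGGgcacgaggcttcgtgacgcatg
Srsf2, chr11:116853095-116853344, strand minus: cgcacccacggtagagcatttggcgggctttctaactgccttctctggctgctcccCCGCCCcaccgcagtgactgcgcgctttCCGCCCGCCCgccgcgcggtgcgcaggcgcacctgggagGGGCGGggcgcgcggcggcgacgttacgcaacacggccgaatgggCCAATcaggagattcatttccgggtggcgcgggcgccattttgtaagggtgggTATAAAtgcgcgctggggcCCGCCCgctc
The letters searched on both strands were TTTCCCGC and TTCCCGCC for E2F, CCGGAAG for ETS factors, GGGCGG for SP1, CCAAT for the CCAAT box, TATAAA for the TATA box and CACGTG for the E-box. The E2F letters overlap each other and GGGCGG on its other strand. The window of U2af1 holds TTTCCCGC on the other strand, 3 copies of the SP1 letters and 2 overlapping copies of CCAAT. That of Sf3a3 holds the ETS letters, that of Clk4 the SP1 letters, that of Prpf4 none of the 7, and that of Srsf2 5 copies of the SP1 letters, CCAAT and TATAAA.

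Windows were given for 55 of the 60 members, all but Clk1, Sf3b4, Snrpb, Snrpd1 and U2af2. Either E2F motif was found in 10 of the 55 (18.2%), against 5.01% of the 9564 tested genes with a window. The 10 were U2af1, Dhx15, Prpf19, Srsf1, Srsf4, Srsf10, Tra2b, Hnrnpa2b1, Hnrnpf and Hnrnpr. TTTCCCGC occurred in 9.09% of the members and 2.02% of tested genes, and TTCCCGCC in 16.4% and 4.0%. The ETS letters were in 29.1% of members and 15.3% of tested genes, the SP1 letters in 65.5% and 65.2%, CCAAT in 47.3% and 40.2%, TATAAA in 10.9% and 7.88%, and CACGTG in 10.9% and 9.99%. These shares describe letters in a window, not binding, and were not tested.

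Values are log2 expression values by RMA, in which the lost decimal mark was restored. Array medians lay between 7.29 and 7.40 on the log2 scale, and the correlation of arrays was 0.995 to 0.998 within genotypes and 0.964 to 0.975 between them. The main Cdkn1b probe set averaged 11.1 ± 0.0924 in CK, 7.38 ± 0.114 in KO and 11.5 ± 0.0396 in WT (SD, n = 3 each), so its signal was at least 17.0-fold lower in KO than in WT, as the KO level is near the array medians and may be background (exact permutation p = 0.1, the smallest that 3 against 3 arrays allow). A second, dim Cdkn1b probe set averaged 7.08 in CK, 7.60 in KO and 7.43 in WT. Of 10 fibroblast markers, 9 were above the filter on dim genes in all 3 genotypes. Of 10 macrophage, 8 endothelial, 8 muscle and 8 neural markers, 1, 1, 2 and 2 were. This count leaves out markers above the filter in only some genotypes. The endothelial Erg averaged 7.17 in CK, 10.8 in KO and 7.84 in WT, and Tek 6.51, 6.80 and 8.77. The neural Nes averaged 9.50 in CK and at most 6.04 in KO and WT. The macrophage marker Cd14 averaged 7.87 in WT and at most 6.69 in CK and KO. None of the muscle markers rose or fell in any comparison. The fibroblast markers differed between genotypes, as 1 rose and 7 fell in KO relative to WT. In CK 3 rose and 3 fell relative to WT, and 8 were higher and 2 lower than in KO. Thy1, the fibroblast marker below the filter in KO, averaged 11.7 in CK, 7.14 in KO and 11.7 in WT. Of 10 cartilage markers, 9 rose in KO relative to WT and 5 fell in CK relative to WT. Their summed signal had a log2 of 11.8 in CK, 15.3 to 15.5 in KO and 13.9 to 14.0 in WT. The brightest of them in KO and WT was Cnmd, which averaged 7.30 in CK, 13.8 in KO and 13.3 in WT. The median over the 10 cartilage markers was 7.06 to 7.23 in CK, 11.8 to 12.2 in KO and 7.13 to 7.84 in WT. Of 13 measured proliferation markers, 3 rose and none fell in CK relative to WT, 1 rose and 6 fell in KO relative to WT, and 10 were higher and none lower in CK than in KO. The log2 of their summed signal was 14.3 to 14.8 in CK, 13.8 to 14.2 in KO and 14.1 to 14.4 in WT. The part of these cell populations in the results below was not tested.

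Few splicing genes differed between KO and WT, and those that did were mostly higher in KO. Of the 57 members, 14 were called, meaning a limma adjusted p under 0.05 over all tested genes, 13 higher and 1 lower. That is 24.6% of the members, against 51.2% of all tested genes, of which 26.6% were higher and 24.6% lower. The median log2 difference was 0.083 over the members and 0.015 over all genes. Sf3a3 and Prpf4 alone were called at 1.5-fold or more, 3.51% of members beside 18% of all genes. The arrays of KO and WT did not overlap for 25 members (43.9%), against 60.9% of all genes. The 14 called became 26 (21 higher, 5 lower) when arrays were weighted by their estimated quality. The share of all genes called with these weights is not given here, so the rise is not read as one of the members. The only fall, Srsf4, was not called without KO array 1, KO array 2, WT array 1 or WT array 3 (log2 differences of -0.14, -0.14, -0.13 and -0.14).

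More members differed between CK and WT, in both directions. Of the 57, 30 were called (52.6%), 17 higher and 13 lower, against 62.9% of all genes (30.7% higher and 32.1% lower). Their median was 0.043, beside -0.011 over all genes. Members called at 1.5-fold or more were Prpf4, Sf3a3 and Sf3b3, higher, and Clk1 and Clk4, lower, 8.77% beside 25.3% of all genes. The arrays of CK and WT did not overlap for 38 members (66.7%, beside 67.3%). Between CK and KO, 28 were called (49.1%), 11 higher and 17 lower, against 62.2% of all genes (29.5% higher and 32.7% lower), with a median of -0.052 beside -0.019. The members called there at 1.5-fold or more were Srsf4, higher, and Clk1 and Clk4, lower, 5.26% beside 25.7%, and the arrays did not overlap for 35 members (61.4%, beside 67.5%). The 3 comparisons share arrays in pairs, so their lists are not independent of each other.

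**Figure D1:**
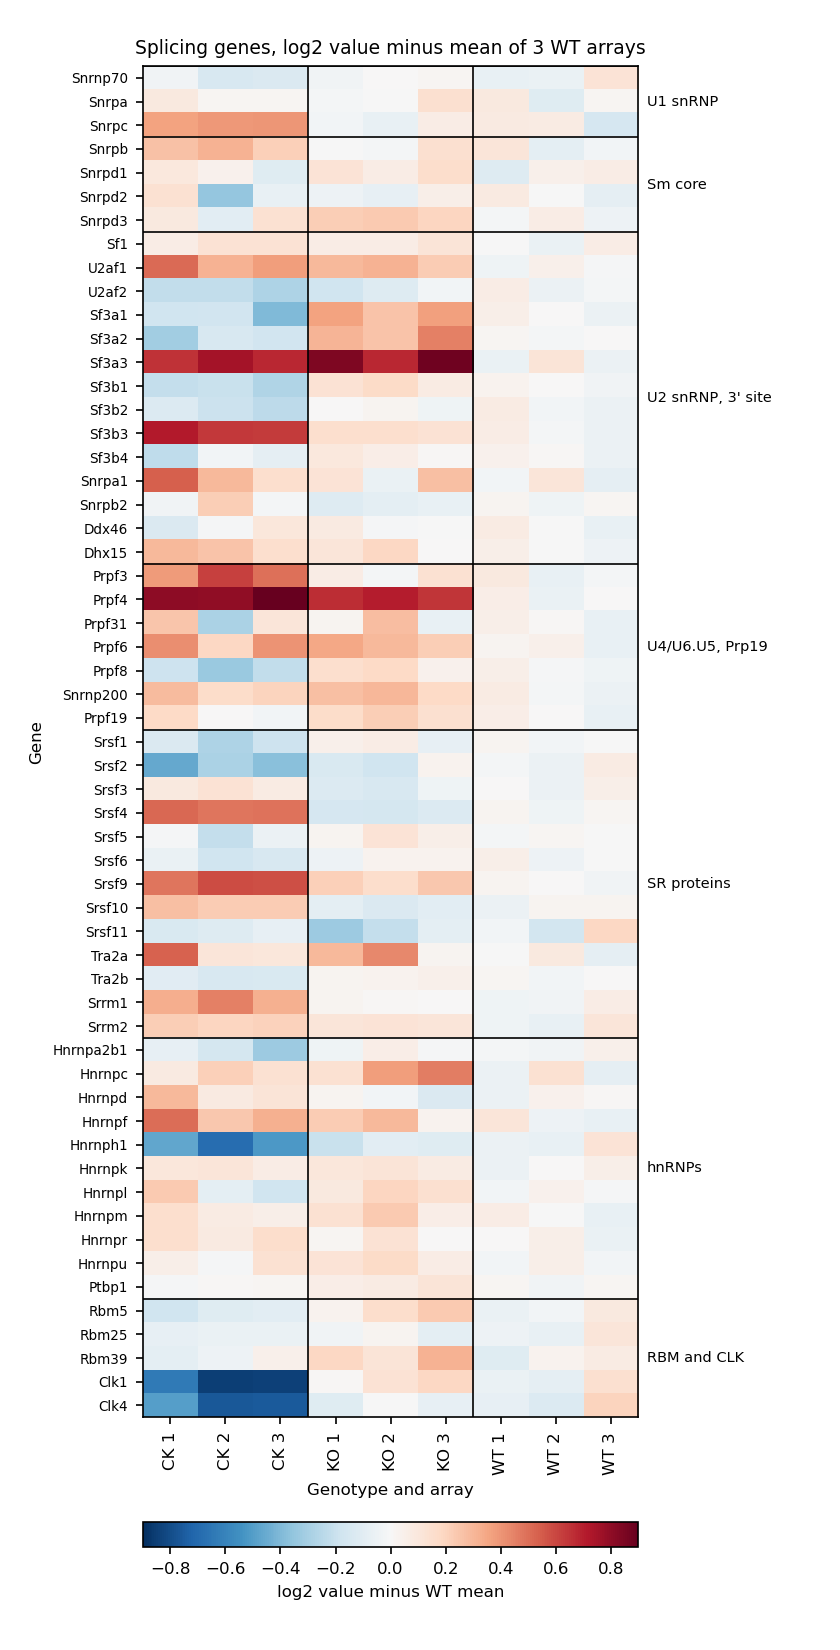
Each row is a splicing gene and each column an array, grouped as CK, KO and WT. Colour gives the log2 value minus the mean of the 3 WT arrays (red higher, blue lower), and black lines part the roles. Clk1 and Clk4 are blue on all CK arrays, and Sf3a3 and Prpf4 are red on all CK and KO arrays.

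Over the 3 genotypes together, the moderated F-test of limma called 36 members (63.2%), against 76.1% of all genes. The CK arrays lay above all others for 13 members (22.8%, beside 22.1% of all genes) and below all others for 15 (26.3%, beside 23.6%). The KO arrays lay above all others for 8 members, among them Sf3a1 and Sf3a2 (14.0%, beside 17.7%), and below all others for 3, Snrpb2, Srsf4 and Srsf10 (5.26%, beside 15%). The WT arrays were the lowest for 10 members (17.5%, beside 16.1%) and the highest for 1, Hnrnph1 (1.75%, beside 16.5%).

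**Figure D2:**
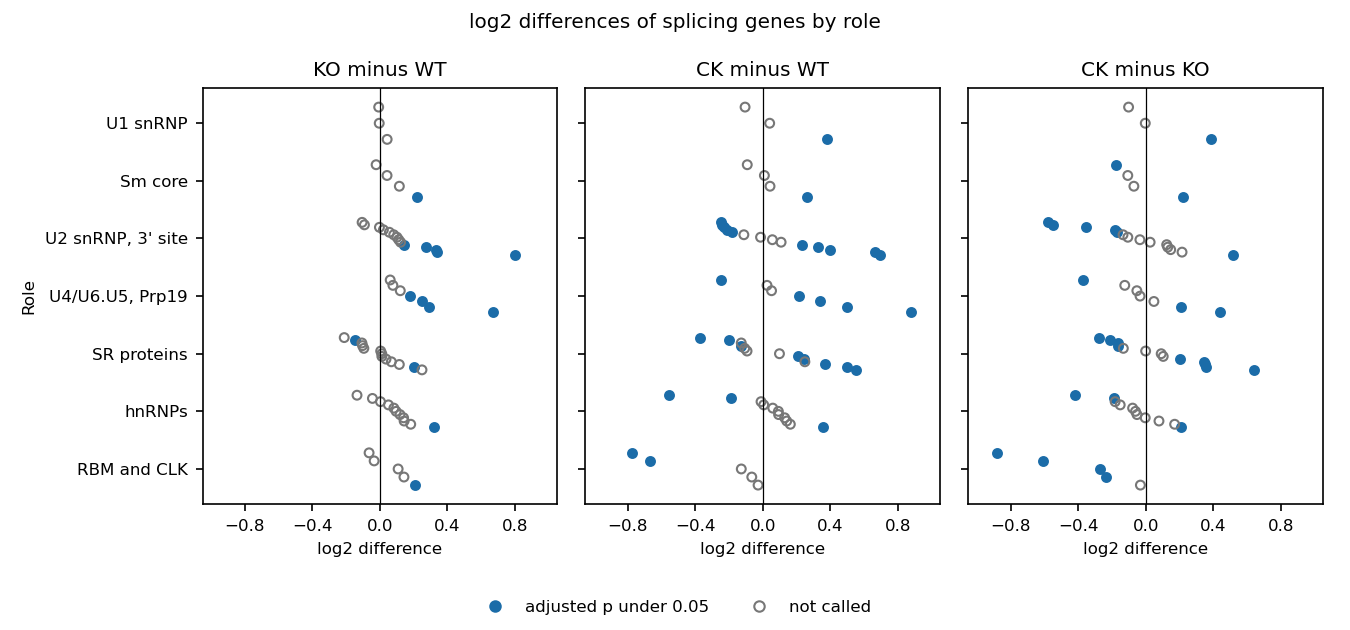
Each dot is a splicing gene in its role (rows), at its log2 difference between genotypes (horizontal axes, KO minus WT, CK minus WT and CK minus KO). Filled dots had a limma adjusted p under 0.05. In KO minus WT the filled dots lie right of 0 but for Srsf4, and in CK minus WT they lie on both sides in most roles.

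Among the proteins of the U1 particle, Snrpc (U1-C, which steadies U1 on the start of the intron) rose in CK. Values here and below are log2 levels in the order of the array numbers, and levels of different genes are not compared, since probes differ in brightness. Snrpc stood at 10.38, 10.42 and 10.42 on the CK arrays, at 10.00, 9.96 and 10.09 on the KO arrays and at 10.11, 10.10 and 9.87 on the WT arrays. The CK arrays lay above all others, while KO and WT overlapped. It was 1.30-fold higher in CK than in WT (a log2 difference of 0.38, with an SE of 0.070 and a limma adjusted p = 0.000704) and 1.31-fold higher than in KO (0.39, adjusted p = 0.000626). As this is RNA of whole cultures, more cells that make a transcript and more transcript per cell cannot be told apart, here and for every gene below. Snrnp70 and Snrpa, the other U1 proteins, were not called in any comparison and differed by -0.10 to 0.044.

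The Sm proteins form the ring that is common to the spliceosomal RNAs, and of 4 measured 1 rose in each mutant relative to WT. That is 25% called in each comparison, beside 51.2% of all genes for KO and 62.9% for CK. Between CK and KO 1 was higher and 1 lower in CK (50%, beside 62.2%). Snrpb (SmB) stood at 11.99, 12.04 and 11.94 in CK, at 11.72, 11.71 and 11.87 in KO and at 11.84, 11.64 and 11.70 in WT. Its CK arrays were above all others, by 0.26 over WT (adjusted p = 0.00597) and 0.22 over KO (adjusted p = 0.0155). The second call was lost without CK array 2, KO array 1 or KO array 2 (differences of 0.20, 0.20 and 0.19, adjusted p from 0.0514 to 0.0593). Snrpd3 (SmD3) was at 12.14, 11.96 and 12.19 in CK, at 12.27, 12.29 and 12.24 in KO and at 12.03, 12.12 and 12.00 in WT. Its KO arrays were above all others, by 0.22 over WT (adjusted p = 0.0187), and CK was lower than KO by a log2 difference of -0.17 (adjusted p = 0.0406). These calls were close to the threshold. The first was lost without KO array 1, KO array 2, WT array 1 or WT array 3 (adjusted p from 0.0542 to 0.0609), and the second without CK array 2, any KO array or WT array 1 (differences of -0.19 to -0.11, adjusted p from 0.0556 to 0.141). Snrpd1 and Snrpd2 were not called.

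The U2 particle and the factors of the 3′ splice site differed in both directions. Of 14 members, 5 rose and none fell in KO relative to WT (35.7% called, beside 51.2% of all genes), 5 rose and 5 fell in CK relative to WT (71.4%, beside 62.9%), and 1 was higher and 5 lower in CK than in KO (42.9%, beside 62.2%). Sf3a3, a subunit of Sf3a, stood at 11.10, 11.21 and 11.14 in CK, at 11.30, 11.13 and 11.33 in KO and at 10.40, 10.57 and 10.40 in WT. Every mutant array was above every WT array, and CK and KO overlapped. The difference was 0.80 in KO (1.74-fold, SE 0.071, adjusted p = 5.12e-06) and 0.69 in CK (1.62-fold, adjusted p = 1.08e-05), both against WT.

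The partners of Sf3a3 in the same subcomplex rose with it in KO and fell in CK. Sf3a1 was at 10.47, 10.47 and 10.25 in CK, at 11.01, 10.90 and 11.01 in KO and at 10.70, 10.65 and 10.59 in WT. Sf3a2 was at 10.80, 10.97 and 10.94 in CK, at 11.42, 11.37 and 11.57 in KO and at 11.13, 11.10 and 11.12 in WT. In both genes the CK arrays were the lowest, the WT arrays in the middle and the KO arrays the highest, with no overlap. Sf3a1 rose by 0.33 in KO (adjusted p = 0.0026) and fell in CK, with a log2 difference from WT of -0.25 (adjusted p = 0.00979), which put CK 1.5-fold below KO (adjusted p = 3.55e-05). Sf3a2 rose by 0.34 in KO (adjusted p = 0.00153), fell in CK with a difference of -0.21 (adjusted p = 0.0179), and was 1.46-fold lower in CK than in KO (adjusted p = 3.49e-05). Both falls in CK relative to WT lost their calls when values were centred on the genes of the same chromosome part (log2 differences of -0.11 for Sf3a1 and -0.14 for Sf3a2).

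The Sf3b subcomplex, which clamps the branch site, was as divided. Sf3b3 stood at 12.44, 12.37 and 12.36 in CK, at 11.88, 11.88 and 11.85 in KO and at 11.79, 11.71 and 11.68 in WT. The CK arrays were far above the others, 1.58-fold over WT (difference 0.66, SE 0.052, adjusted p = 1.31e-06) and 1.43-fold over KO (adjusted p = 8.04e-06), and KO exceeded WT by 0.14 (adjusted p = 0.0393). Sf3b1, which contacts the branch site, went the other way and stood at 11.87, 11.89 and 11.82 in CK, at 12.22, 12.26 and 12.16 in KO and at 12.12, 12.09 and 12.05 in WT. Its CK arrays were below all others, with differences of -0.23 from WT (adjusted p = 0.00239) and -0.35 from KO (adjusted p = 0.000126). Sf3b2 also fell in CK, with a difference of -0.18 from both KO and WT (adjusted p = 0.0144 and 0.0135), and Sf3b4 was lower in CK than in KO (-0.17, adjusted p = 0.0374).

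The U2af heterodimer, which reads the end of the intron, split in CK. U2af1, the small subunit that contacts the closing AG, was at 9.98, 9.79 and 9.85 in CK, at 9.76, 9.79 and 9.70 in KO and at 9.44, 9.52 and 9.46 in WT. The mutant arrays were all above the WT arrays, by 0.40 in CK (1.32-fold, adjusted p = 0.000206) and 0.28 in KO (1.21-fold, adjusted p = 0.0034). A second U2af1 probe set averaged 9.80 in CK, 9.83 in KO and 9.47 in WT, and the arrays of both mutants overlapped WT. Its differences from WT, 0.32 in CK and 0.35 in KO, were not called in a limma fit of all probe sets (adjusted p = 0.137 and 0.126). U2af2, the large subunit that binds the pyrimidine tract, was at 11.04, 11.03 and 10.98 in CK, at 11.08, 11.14 and 11.23 in KO and at 11.33, 11.20 and 11.24 in WT. The CK arrays lay lowest, with a difference from WT of -0.24 (adjusted p = 0.00438), and KO and WT overlapped. Of the remaining U2 members, Snrpa1, a protein of U2, and Dhx15, a helicase of spliceosome disassembly, rose in CK by 0.33 and 0.23 over WT (adjusted p = 0.0229 and 0.00861). Sf1, Snrpb2 and Ddx46 were not called in any comparison.

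**Figure D3:**
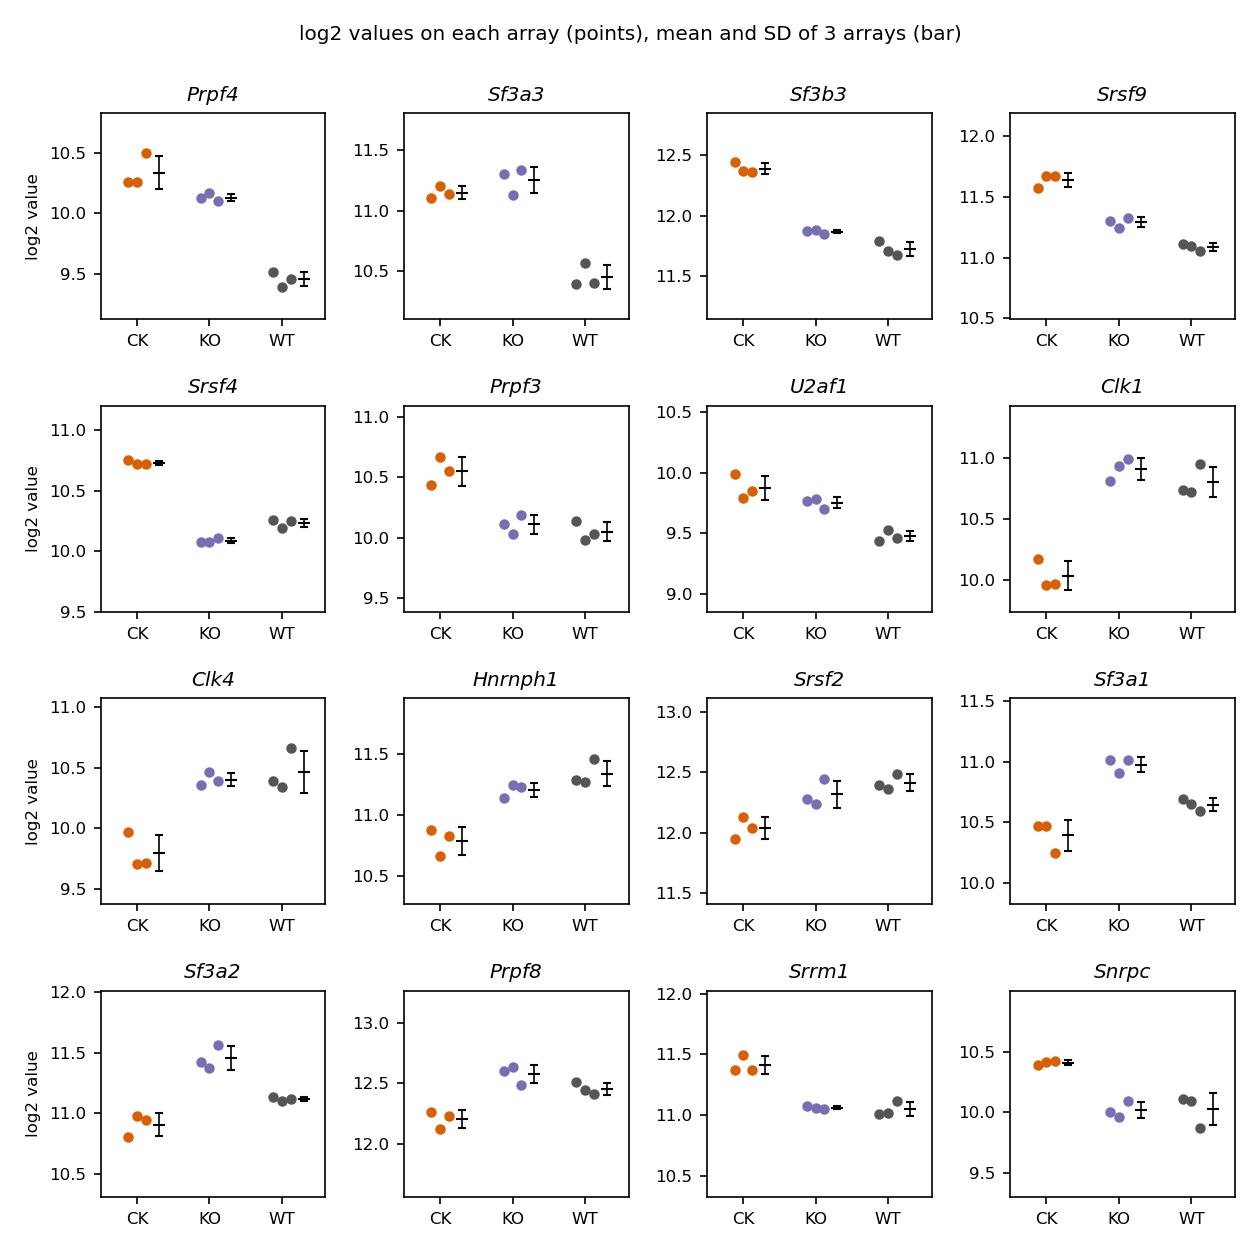
Each panel is a splicing gene, with log2 values of single arrays as points over CK, KO and WT, and the mean with its SD (n = 3) as a bar. Every panel spans the same height on the log2 axis. Sf3b3, Srsf4, Srrm1 and Snrpc stand highest in CK, Clk1, Clk4 and Hnrnph1 lowest in CK, and Sf3a3 and Prpf4 lowest in WT.

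Of 7 members of the U4/U6.U5 particle and the Prp19 complex, Prpf4, Prpf6 and Snrnp200 rose in both mutants. In KO relative to WT 4 rose and none fell (57.1% called, beside 51.2% of all genes), in CK relative to WT 4 rose and 1 fell (71.4%, beside 62.9%), and 2 were higher and 1 lower in CK than in KO (42.9%, beside 62.2%). The shares against WT are near those of all genes. Prpf4, a protein of the U4/U6 pair, stood at 10.26, 10.26 and 10.49 in CK, at 10.12, 10.16 and 10.10 in KO and at 9.51, 9.39 and 9.46 in WT. The genotypes did not overlap. Against WT the rise was 1.84-fold in CK (0.88, SE 0.071, adjusted p = 1.64e-06) and 1.59-fold in KO (0.67, adjusted p = 1.78e-05), and CK exceeded KO by 0.21 (adjusted p = 0.0258). Prpf3, its direct partner, was at 10.43, 10.67 and 10.55 in CK, at 10.12, 10.03 and 10.19 in KO and at 10.14, 9.98 and 10.03 in WT. Only the CK arrays stood apart, 1.41-fold over WT (adjusted p = 0.000159) and 1.35-fold over KO (adjusted p = 0.000405), with a KO difference from WT of 0.062 that was not called.

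In the U5 proteins, Prpf6, which bridges the particles, was at 10.38, 10.15 and 10.37 in CK, at 10.31, 10.25 and 10.19 in KO and at 9.98, 10.01 and 9.89 in WT. Both mutants lay above WT without overlap, by 0.34 in CK (adjusted p = 0.00202) and 0.29 in KO (adjusted p = 0.00685). Snrnp200, the Brr2 helicase that unwinds U4 from U6, was at 11.17, 11.04 and 11.08 in CK, at 11.15, 11.18 and 11.06 in KO and at 10.96, 10.86 and 10.82 in WT. It rose likewise, by 0.22 in CK (adjusted p = 0.00887) and 0.25 in KO (adjusted p = 0.00522). Prpf8, the central scaffold, stood at 12.27, 12.12 and 12.23 in CK, at 12.60, 12.63 and 12.49 in KO and at 12.51, 12.44 and 12.41 in WT. Its CK arrays were the lowest, with differences of -0.25 from WT (adjusted p = 0.00459) and -0.37 from KO (adjusted p = 0.000347). Prpf19, the ubiquitin ligase of its complex, rose by 0.18 in KO over WT (adjusted p = 0.043), and Prpf31 was not called.

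Of 13 SR proteins and relatives measured, 5 rose and 3 fell in CK relative to WT (61.5% called, beside 62.9% of all genes), 1 rose and 1 fell in KO relative to WT (15.4%, beside 51.2%), and 5 were higher and 4 lower in CK than in KO (69.2%, beside 62.2%). The shares in the comparisons with CK are near those of all genes. Srsf4 stood at 10.75, 10.72 and 10.72 in CK, at 10.08, 10.07 and 10.11 in KO and at 10.25, 10.19 and 10.25 in WT. The genotypes did not overlap, with CK highest and KO lowest. CK was 1.56-fold over KO (0.64, SE 0.046, adjusted p = 6.36e-07) and 1.41-fold over WT (0.50, adjusted p = 5.05e-06), and KO differed from WT by -0.15 (adjusted p = 0.0233), a call whose loss without single arrays is given above (adjusted p from 0.0569 to 0.0756).

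Srsf9, an SR protein with a short RS tail, was at 11.57, 11.67 and 11.67 in CK, at 11.31, 11.25 and 11.33 in KO and at 11.12, 11.09 and 11.06 in WT. It was ordered CK, KO, WT with no overlap. It rose by 0.55 in CK (1.46-fold, adjusted p = 5.54e-06) and 0.20 in KO (adjusted p = 0.0073) over WT. Srrm1, a splicing coactivator, was at 11.37, 11.50 and 11.37 in CK, at 11.07, 11.06 and 11.05 in KO and at 11.01, 11.02 and 11.11 in WT. Only CK stood apart, by 0.37 over WT (adjusted p = 0.000188) and 0.35 over KO (adjusted p = 0.000236).

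Srsf10, which represses splicing when dephosphorylated, was at 11.97, 11.93 and 11.93 in CK, at 11.61, 11.57 and 11.61 in KO and at 11.65, 11.73 and 11.73 in WT. CK was above all other arrays, by 0.24 over WT (adjusted p = 0.00129) and 0.35 over KO (adjusted p = 0.000102), and its probe set is taken up below. Srsf2, in contrast, stood at 11.95, 12.13 and 12.04 in CK, at 12.28, 12.23 and 12.45 in KO and at 12.39, 12.36 and 12.49 in WT. Its CK arrays were the lowest, with differences of -0.37 from WT (1.30-fold lower, adjusted p = 0.00101) and -0.28 from KO (adjusted p = 0.00621). Srsf1 and Tra2b fell in CK as well, with differences from WT of -0.20 and -0.13 (adjusted p = 0.0133 and 0.0307), while Srrm2 rose by 0.21 (adjusted p = 0.00743). Srsf6, Srsf11 and Tra2a were not called in any comparison.

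Of the 11 hnRNP proteins, 1 was called between KO and WT (9.09%, beside 51.2% of all genes), 3 between CK and WT (27.3%, beside 62.9%) and 3 between CK and KO (27.3%, beside 62.2%). Hnrnph1, which binds runs of G, fell in CK and stood at 10.87, 10.66 and 10.83 there, at 11.14, 11.25 and 11.23 in KO and at 11.29, 11.27 and 11.46 in WT. The genotypes did not overlap. CK was 1.47-fold below WT (-0.55, SE 0.074, adjusted p = 7.4e-05) and 1.34-fold below KO (adjusted p = 0.000541), and KO differed from WT by -0.13 (adjusted p = 0.156).

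Its relative Hnrnpf rose in CK, standing at 12.79, 12.52 and 12.60 there, at 12.51, 12.57 and 12.31 in KO and at 12.39, 12.24 and 12.22 in WT. The difference from WT was 0.35 (adjusted p = 0.00532), with CK above WT on every array and KO overlapping both. Hnrnpc, which coats pyrimidine-rich introns, was at 10.32, 10.46 and 10.38 in CK, at 10.38, 10.62 and 10.70 in KO and at 10.19, 10.38 and 10.16 in WT. KO exceeded WT by 0.32 (adjusted p = 0.0118), although their arrays overlapped, and the difference was 0.16 with weighted arrays (adjusted p = 0.102).

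Hnrnpd, a binder of AU-rich RNA, was at 10.85, 10.63 and 10.67 in CK, at 10.57, 10.53 and 10.42 in KO and at 10.50, 10.59 and 10.57 in WT. CK was above KO by 0.21 (adjusted p = 0.0236), a call lost without CK array 1 or KO array 3 (0.14 and 0.16, adjusted p = 0.0874 and 0.0841). Hnrnpa2b1 fell in CK by a small amount (-0.19 against both KO and WT, adjusted p = 0.0339 and 0.0368). Ptbp1, which blocks exons through pyrimidine tracts, was not called and stood at 12.41, 12.43 and 12.44 in CK, at 12.48, 12.50 and 12.54 in KO and at 12.44, 12.39 and 12.44 in WT. Its KO arrays lay above all others. Hnrnpk, Hnrnpl, Hnrnpm, Hnrnpr and Hnrnpu were not called in any comparison either.

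The largest falls belonged to Clk1 and Clk4, the kinases of SR proteins. Clk1 stood at 10.17, 9.96 and 9.97 in CK, at 10.81, 10.93 and 10.99 in KO and at 10.74, 10.72 and 10.95 in WT. Clk4 was at 9.97, 9.71 and 9.71 in CK, at 10.35, 10.46 and 10.39 in KO and at 10.39, 10.34 and 10.66 in WT. In both genes the CK arrays lay below all others and KO overlapped WT. Clk1 was 1.71-fold lower in CK than in WT (-0.77, SE 0.083, adjusted p = 1.52e-05) and 1.84-fold lower than in KO (adjusted p = 5.38e-06). Clk4 was 1.59-fold lower in CK than in WT (-0.67, SE 0.096, adjusted p = 0.000132) and 1.52-fold lower than in KO (adjusted p = 0.000268).

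Rbm39, a coactivator related to U2af2, was at 11.16, 11.20 and 11.29 in CK, at 11.43, 11.36 and 11.56 in KO and at 11.14, 11.27 and 11.32 in WT. The KO arrays were the highest, by 0.21 over WT (adjusted p = 0.0332), and CK was lower than KO by a difference of -0.23 (adjusted p = 0.0151). The call against WT was lost without KO array 1, KO array 3, WT array 1 or WT array 2 (0.22, 0.15, 0.15 and 0.22, adjusted p from 0.0573 to 0.128). Rbm5, a regulator of apoptosis genes, was lower in CK than in KO (-0.27, adjusted p = 0.00467), and Rbm25 was not called in any comparison.

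The differences moved with chromosome. When each chromosome was cut into 3 parts of equal gene number, the median log2 difference of all genes in a part ranged from -0.32 to 0.26 for CK minus WT over the 60 parts and from -0.14 to 0.44 for KO minus WT, with 29 and 10 parts beyond 0.1 in size. All 6 members on chromosome 11, Sf3a1, Hnrnph1, Clk4, Prpf8, Srsf1 and Srsf2, fell in CK relative to WT (median -0.31), where 51.6% of all genes of that chromosome fell and 12.9% rose (median -0.19). They were also lower in CK than in KO. On chromosome 4, 5 of 6 members rose in CK relative to WT (Prpf4, Sf3a3, Srsf4, Srsf10 and Srrm1, not Hnrnpr), with a median of 0.43, where 50.3% of all genes rose and 17.5% fell (median 0.19). The probe set of Srsf10 lies among identifiers of chromosome 13, so its value may not come from chromosome 4. The KO rises of Prpf4 and Sf3a3 lie in parts of chromosome 4 with medians of 0.44 and 0.25 for KO minus WT.

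**Figure D4:**
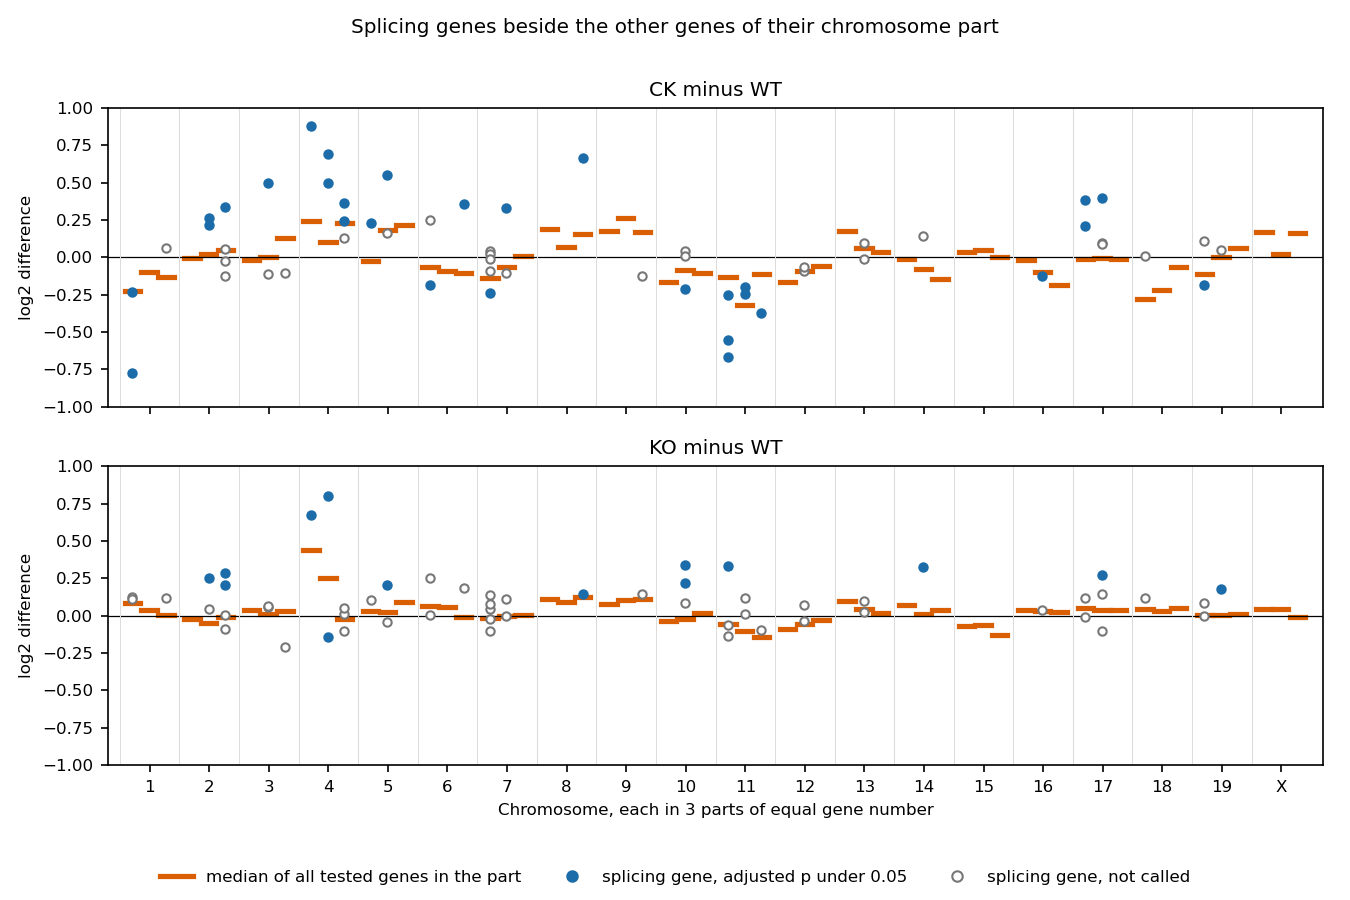
The horizontal axis gives chromosomes in 3 parts each, the vertical axis the log2 difference, CK minus WT above and KO minus WT below. Orange bars are medians of all tested genes in a part, and dots are splicing genes, filled where called. The dots of chromosome 11 lie below 0 and those of chromosome 4 above 0 in CK minus WT, on the same side as the orange bars.

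Relative to the median of their own part of the chromosome, an alternative chosen after seeing the data, 28 members were called between CK and WT (21 higher, 7 lower, beside 63.5% of all genes), of which 19 were called before. The calls of Sf3a1, Sf3a2, Sf3b1, Sf3b2, U2af2, Prpf8, Srsf1, Srsf10, Tra2b, Srrm1 and Hnrnpa2b1 ended, and Prpf8 turned to 0.053 (adjusted p = 0.429). Those of Prpf4 (0.59), Sf3a3 (0.57), Sf3b3 (0.51), Prpf3 (0.50), Srsf9 (0.40), Clk1 (-0.60), Clk4 (-0.53), Hnrnph1 (-0.41) and Srsf2 (-0.24) remained. For KO minus WT, 17 were called (14 higher, 3 lower, beside 50.3%), of which 13 were called before. Sf3a3 stood at 0.60, Prpf4 at 0.27, against 0.67 before centring, and Srsf4 at -0.35. The KO call of Sf3b3 ended (0.020, limma adjusted p = 0.749). Between CK and KO, 21 were called (10 higher, 11 lower, beside 62.6%), of which 16 were called before, and Sf3b1, Srsf10, Srrm1, Snrpb, Snrpd3 and Hnrnpd were among those lost. The cause of the chromosome shifts was not tested.

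Some members were read by probe sets that may not lie in the gene. On this array identifiers run along the genome, so the neighbours of an identifier show its chromosome, and for 99.9% of genes with a single probe set this was the gene's own. Of the members, 44 had 1 probe set and 13 had several, up to 5. For Snrpc, Snrpd2, Sf3b4, Srsf3, Srsf5, Srsf10, Tra2b, Hnrnpf and Hnrnpk the brightest probe set lay among identifiers of another chromosome. For Srsf3, which controls export and splicing of many mRNAs, the choice turned the result. Its brightest set was at 12.39, 12.43 and 12.37 in CK, at 12.17, 12.15 and 12.26 in KO and at 12.30, 12.24 and 12.35 in WT. The set among identifiers of its own chromosome 17 was at 8.32, 8.09 and 8.39 in CK, at 8.83, 8.75 and 8.63 in KO and at 8.56, 8.87 and 8.60 in WT. The CK arrays were thus the highest in the first set and the lowest in the second, with CK minus KO at 0.20 (adjusted p = 0.00669) and -0.47 (adjusted p = 0.0021). Which set measures Srsf3 was not tested.

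The same choice moved 3 other members. The own-chromosome set of Srsf5, an SR protein, fell in CK relative to WT (-0.33, adjusted p = 0.0211), where the brightest differed by -0.093 (adjusted p = 0.22). That of Sf3b4 rose in KO relative to WT (0.30, adjusted p = 0.00655), where the brightest differed by 0.057 (adjusted p = 0.488). That of Srsf10 was too dim to be tested, with means of 6.88 in CK, 6.72 in KO and 6.71 in WT. The sets of Snrpc, Tra2b and Hnrnpf kept their calls in CK against WT. Tra2a, an SR-like activator, had sets of both signs for CK minus WT (0.25, -0.33 and -0.40), none of them called, and the 2 with negative values list no RefSeq transcript.

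**Figure D5:**
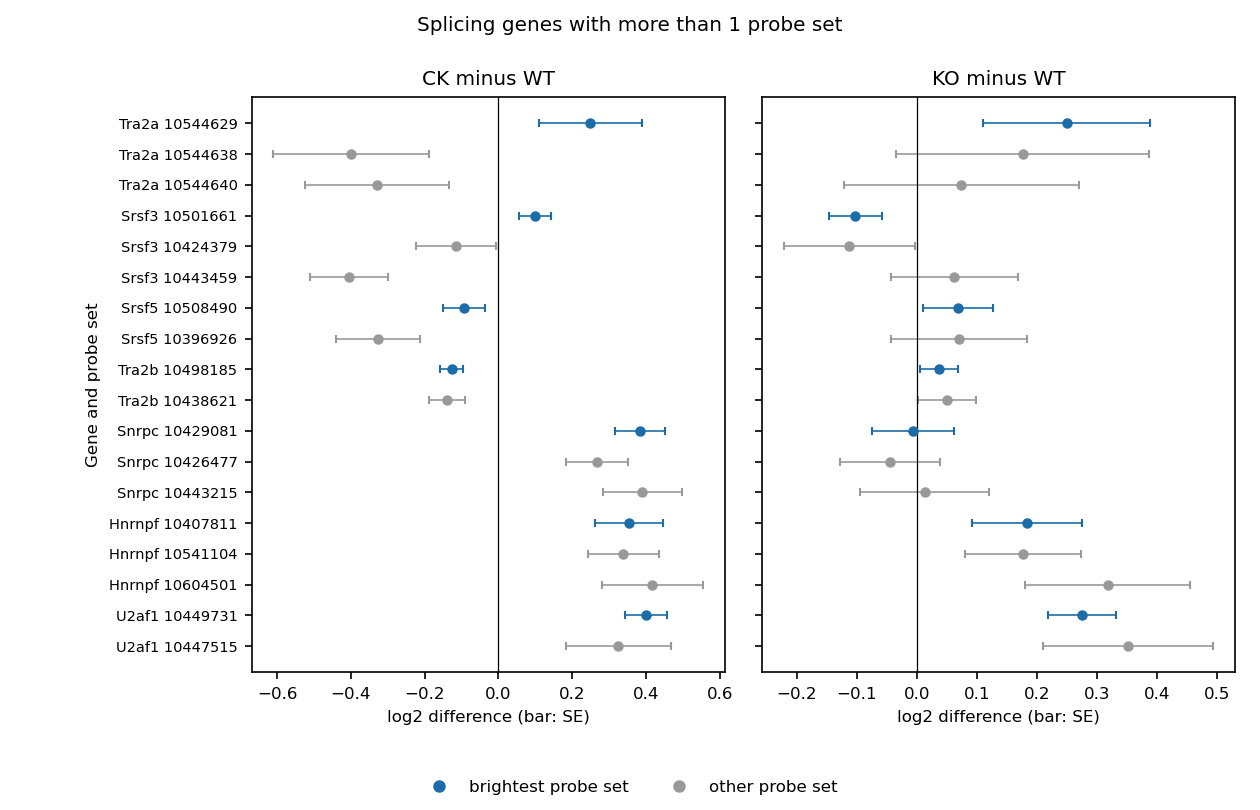
Rows are probe sets of splicing genes that have more than 1, with the gene and identifier, and the horizontal axes give the log2 difference with its SE (n = 3 arrays a genotype), CK minus WT on the left and KO minus WT on the right. Blue marks the brightest set. The sets of Srsf3 lie on both sides of 0 on the left, and those of Snrpc, Hnrnpf and U2af1 lie on the same side.

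A list of 138 other splicing genes, taken by function, had 125 measured and 122 tested genes, and Srpk3, Esrp1 and Esrp2 fell below the filter. In KO relative to WT 35 rose and 11 fell (37.7% called, beside 51.2% of all genes), in CK relative to WT 52 rose and 17 fell (56.6%, beside 62.9%), and 40 were higher and 31 lower in CK than in KO (58.2%, beside 62.2%). Celf2, a regulator of alternative exons, rose most in KO and stood at 10.59, 10.59 and 10.66 in CK, at 10.46, 10.47 and 10.46 in KO and at 9.78, 9.65 and 9.51 in WT. Both mutants lay above WT, by 0.97 in CK (adjusted p = 5.17e-07) and 0.81 in KO (adjusted p = 2.63e-06). Celf2 was read from the brightest of its 2 probe sets. Its values part at 10 only between genotypes, so the range within genotypes does not check its restored decimal mark. Bud31 and Ppih, named below, also have values on both sides of 10. Srsf12, an SR protein that opposes others, fell in both, to 7.28, 7.19 and 7.13 in CK and 7.65, 7.72 and 7.72 in KO, against 8.56, 8.81 and 8.63 in WT. The differences were -1.47 in CK (adjusted p = 4.09e-08) and -0.97 in KO (adjusted p = 1.17e-06).

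In CK relative to WT the largest rises were those of Bud31, a protein of the active spliceosome (1.06, adjusted p = 1.59e-05), and Ppih, a cyclophilin that binds Prpf4 in the U4/U6 particle (1.04, adjusted p = 9.02e-07). Rnpc3, of the minor spliceosome, and the cold-induced Cirbp fell (-1.0 and -0.89, adjusted p = 2.43e-05 and 8.19e-06). Ptbp2, the neural relative of Ptbp1, stood at 11.26, 11.34 and 11.08 in CK, at 10.01, 10.08 and 10.37 in KO and at 10.87, 10.83 and 10.96 in WT. It differed from WT in opposite directions, by 0.34 in CK (adjusted p = 0.0101) and -0.73 in KO (adjusted p = 0.000109), and the neural factor Nova1 did so as well (0.65 and -0.41, adjusted p = 1e-06 and 4.33e-05). Nova1, read from the brightest of its 2 probe sets, averaged only 7.40 over all arrays. That is near the array medians, so its lower values may be background. Ptbp3, another relative of Ptbp1, rose in CK (0.80, adjusted p = 1.36e-06) and KO (0.63, adjusted p = 1.28e-05), as did the cyclophilin Ppie (0.66 and 0.63, adjusted p = 0.000578 and 0.0011). Mbnl1, a regulator of muscle exons, and Snrpe (SmE) were lower in CK than in KO (-0.88 and -0.83, adjusted p = 4.41e-06 and 9.3e-06). Ppie, Ptbp3 and Srsf12 lie on chromosome 4, as do Prpf4 and Sf3a3. So does Ppih, but the brightest of its 3 probe sets, read here, lies among identifiers of chromosome 5.

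In both comparisons with CK, members with and without E2F letters in the promoter were called in each direction. Of the 10 with either E2F motif, 5 rose and 3 fell in CK relative to WT (80.0% called, beside 62.9% of all genes, median 0.18), 2 rose and 1 fell in KO relative to WT (30.0%, beside 51.2%, median 0.044), and 2 were higher and 3 lower in CK than in KO (50%, beside 62.2%, median 0.10). Of the 42 measured members with a window and neither motif, 11 rose and 8 fell in CK relative to WT (45.2% called, median 0.042), 11 rose and none fell in KO relative to WT (26.2%, median 0.090), and 8 were higher and 12 lower in CK than in KO (47.6%, median -0.052). With the letters, U2af1 was higher in both mutants than in WT, Srsf4 was higher in CK and lower in KO, and Srsf1, Tra2b and Hnrnpa2b1 were lower in CK. These counts are a description, and the difference between the sets was not tested.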

How the data were processed

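Expression of quiescent mouse fibroblasts was measured on 9 arrays, 3 each of CK, KO and WT, grouped by the titles. Per the submitters' processing notes, the authors used RMA and affy, whose versions are not given in the sources used here, and deposited 34760 probe sets. RMA gives log2 values after background correction, quantile normalization and median polish, and the deposited values are treated here as a score because each had lost its decimal mark. A string whose first digit is 1 was taken to be 10 or above, any other to be below 10, and the range was then 4.28 to 14.4. Where the arrays of a genotype straddle 10 (2242 probe sets and genotypes), their median range was 0.263, against 8.92 unrestored and 0.133 elsewhere. Over all 9 arrays, 8 members had values on both sides of 10 (Snrpc, Snrpd1, Sf3b2, Prpf3, Prpf4, Prpf6, Clk1 and Clk4). In Prpf4 and Clk4 the values part at 10 only between genotypes, so the range within genotypes does not check them. The deposited values carry no detection call, so a dim value may be background, and the number of arrays limits the precision (median SD of the members 0.0627).

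The platform annotation gives 1 symbol to 21640 probe sets, several to 1321 and none to 11799, and 21553 of the first were found in a RefSeq table of GRCm38.p6, used for names and chromosomes. The probe set with the highest mean stood for each of 19937 genes, 954 of which had several. Genes at or above the 40th percentile (7.24), 11962 in all, were fitted by limma (version 3.58.1, R 4.3.3) with a coefficient for each genotype and empirical Bayes variances, and p-values were adjusted by Benjamini and Hochberg over all of them. The script was tested on simulated data. Adjusted p in the text are from limma.

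The members, their roles, the list of other splicing genes and the markers were chosen with earlier results of these data known, so counts over them are descriptions. Named with values were, in each comparison, the called members with the 8 strongest rises and the 8 strongest falls whose arrays do not overlap, the 2 largest called members of each role, members whose probe sets disagree, and the 3 largest rises and falls of the other list. Further members called in a role were named after their values were seen. Alternatives were other filters, probe set rules, normalizations, variance models, array weights, fits of 6 arrays, a replicate block, a stricter threshold and leaving out each array.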

Additional observations from a re-analysis of the deposited data

How the results depend on the processing

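The 66 named results were recomputed under each alternative that kept their genes. Prpf8 in CK versus WT alone turned direction, under centring on chromosome parts (0.053). Without genes on both sides of 10 only 50 were recomputed, which left out Prpf4, Prpf3, Prpf6, Clk1, Clk4 and Snrpc. The filter at the 60th percentile left 61, the mean over probe sets 64 and the own-chromosome probe sets 65. Srsf3, which is not among the named results, was at -0.47 in CK versus KO from the probe set of its own chromosome, in place of 0.20. Of the values of the named results, 1452 kept direction and side of the threshold and 41, of 13 results, lost the call. The counts of members over KO versus WT were the least steady. With array weights 26 members were called, 21 higher and 5 lower, and 21 other splicing genes lower in place of 11. At an adjusted p under 0.01, 8 members were called in KO versus WT, 8 higher and 0 lower, 8 were lower in CK versus WT and 11 lower in CK versus KO, 21 were called by the F-test, and 4 and 11 other splicing genes were lower in KO versus WT and CK versus WT. Centring on chromosome parts left 3 members lower in KO versus WT in place of 1, 7 in CK versus WT in place of 13, and 11 in CK versus KO in place of 17, and the cause was not tested. Without genes whose arrays lie on both sides of 10, 11 other splicing genes were lower in CK versus WT, since fewer genes were tested. Leaving out 1 array gave 10 to 15 members called in KO versus WT (0 to 2 lower), 25 to 30 in CK versus WT and 22 to 29 in CK versus KO, and 6 to 11 other splicing genes lower in KO versus WT. Of all tested genes, 5298 to 6227, 6959 to 7630 and 6788 to 7523 were then called in the same 3 comparisons. With a replicate block 2 members were lower in KO versus WT and Snrpd3 in CK versus KO was not called (-0.17, adjusted p = 0.0695). Deviations from the genotype mean correlated at r from -0.30 to 0.36 between same-numbered arrays and from -0.34 to 0.25 between the others. With 3 arrays a genotype, these values cannot settle if the numbers pair the arrays. The other filters, probe set rules, normalizations and variance models kept each count within 1.5 times. Shares of all genes are not given here for array weights, the replicate block or the threshold of 0.01. Counts under these settings have no background beside them.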

Other observations

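The other splicing genes were also counted by list, beside 62.9% of all tested genes called in CK versus WT, 51.2% in KO versus WT and 62.2% in CK versus KO, and differences between lists were not tested. Of 17 tested regulators of tissue or signal, 8 rose and 3 fell in CK relative to WT, 6 rose and 3 fell in KO relative to WT, and 7 were higher and 3 lower in CK than in KO (64.7%, 52.9% and 58.8% called). Of 31 further proteins of the U4/U6.U5 and Prp19 complexes, 15 rose and 1 fell in CK relative to WT (51.6% called, median 0.20), and 6 rose and 2 fell in KO relative to WT (25.8%, median 0.075). Of 10 further SR proteins and their kinases, 3 rose and 4 fell in CK relative to WT, and 3 were higher and 6 lower in CK than in KO (70% and 90% called). Of 7 proteins of the minor spliceosome, which removes a rare class of introns, 3 rose and 1, Rnpc3, fell in CK relative to WT, and 2 rose and 1 fell in KO relative to WT (57.1% and 42.9% called).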
